A study of Mus musculus with 14 samples.

Results

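Dppa3, Dppa4 and Dppa5a are 3 mouse genes named for their expression in early embryos and germ cells (developmental pluripotency associated). They were taken by symbol, as 3 of the 16590 gene symbols on an Illumina mouse beadchip, and all of their probes are described: 7 of 25697 probes in all. Dppa3 had 1 probe, Dppa4 had 3 and Dppa5a had 3. RNA was measured on 14 arrays in 7 groups of 2, and all cells came from mice of the strain given as C57/B6. Mouse embryonic fibroblasts (MEFs), a somatic cell type, made up the first group. The second was a line of embryonic stem cells (ESCs) in serum with the cytokine LIF that carried only O4-DE-GFP, a GFP gene placed under the distal enhancer of Oct4, which is encoded by Pou5f1. The labels give no sort gate for this single-reporter line. Epiblast stem cells (EpiSCs) were the third group, labelled as derived from epiblasts of embryonic day 6.5 for array 1 and 6.6 for array 2. Other names in these descriptions also count up from one array to the next, so it is doubtful that the days differed. The other 4 groups share a double-reporter background, O4-DE-GFP with O4-PE-RFP, in which the red protein tdTomato is driven by the proximal enhancer and promoter of Oct4 in a 6 kb fragment without the distal enhancer. They were epiblast-like cells (EpiLCs) sorted as GFP-RFP+, ESCs sorted as GFP+RFP- from N2B27 medium with LIF and the inhibitors CHIR99021 (3 µM) and PD0325901 (1 µM), called 2i, ESCs sorted as GFP+RFP+ from serum with LIF, and ESCs sorted as GFP+RFP- from serum with LIF. The sources used here do not say how many lines or clones stand behind a group. Nothing says that the 2 arrays of a group came from separate cultures, so the p-values rest on the spread of paired arrays and this may be technical spread alone.

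Dppa3, also called Stella, is a small maternal protein that keeps parts of the genome from being methylated in the egg and early embryo, in part through the methylation cofactor Uhrf1. Its expression differs from cell to cell in mouse ESCs grown in serum. Dppa4 is a nuclear DNA-binding protein with a SAP domain that works with Dppa2 on developmental promoters and on genes of the early embryonic genome. Dppa5a, also called Esg1, is an RNA-binding protein of the KH family that is abundant in undifferentiated mouse ESCs. Naive cells such as 2i ESCs stand for the epiblast before implantation, and EpiLCs and EpiSCs for the epiblast after it.

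Signals are given as background-corrected, quantile normalized log2 values, and a probe was detected where its detection p-value was under 0.05. Between 46.4% and 53.8% of probes were detected per array. The group labels were set against marker lists. Of 6 core pluripotency genes, 1 was detected on each MEF array, where Pou5f1 was not, and all 6 on each ESC, EpiLC and EpiSC array. The mean level of 10 naive genes was 7.21 to 8.09 on EpiSC and EpiLC arrays and 11.28 to 12.18 on ESC arrays. On the MEF arrays it was 7.25 and 7.23, so a low naive level alone does not mark EpiLCs or EpiSCs. The mean of 9 genes of the post-implantation epiblast was 9.79 and 9.77 on EpiLC arrays and 11.09 and 10.57 on EpiSC arrays. It was 7.23 to 8.62 on ESC arrays and 5.48 and 5.40 on MEF arrays. The 2 EpiSC arrays stood apart from each other. Across 10481 genes they correlated at 0.976 with 590 genes over 1 log2 apart, against 0.997 to 0.998 and 1 to 20 genes within the other groups, so each EpiSC array is shown singly. Both EpiSC arrays also stood apart from the other 12 in scanner signal. Their medians were 313.5 and 316.8, against 142.6 to 209.4 on the other arrays, and their lowest signals were 159.7 and 165.3, against 73.9 to 110.9. The part of this in comparisons with EpiSCs was not tested.

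All 3 genes were high in every ESC group and undetected in MEFs, and in EpiLCs they lay between these. The genes differed in EpiSCs, where Dppa3 was undetected, whereas Dppa4 and Dppa5a were detected on both EpiSC arrays at widely different levels. In the order of its group means Dppa3 ran 2i ESCs, RFP- serum ESCs, RFP+ serum ESCs, single-reporter ESCs and EpiLCs, with EpiSCs and MEFs below detection and so without an order between them. Neighbours in this order were not called different between 2i and RFP- serum or between RFP- and RFP+ serum. Single-reporter ESCs were below RFP+ serum ESCs by 0.59 (SE 0.11, adjusted p = 0.0012; 58.8% of all genes were called between these groups), and EpiLCs were below single-reporter ESCs by 4.77 (1.2e-09; 67.2% called). The array-wise plot of levels shows these orders. These are bulk RNA measurements, in which fewer expressing cells and less RNA per cell cannot be told apart.

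**Figure D1:**
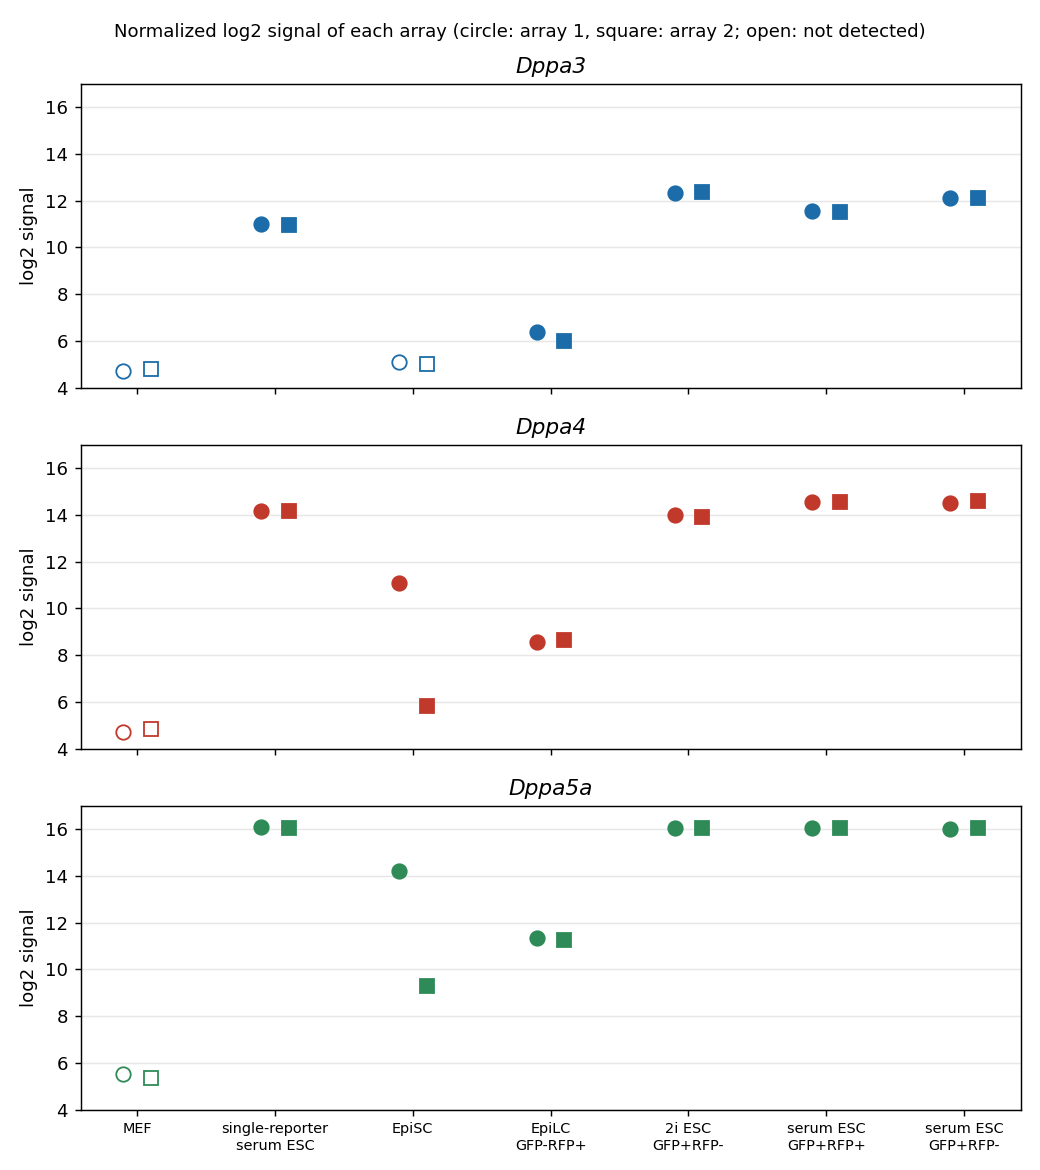
Normalized log2 signal (vertical axis) of the probe that stands for each gene, on each of the 14 arrays, by group (horizontal axis). Circles are array 1, squares array 2, and open symbols were not detected. ESC arrays lie at 10.94 or above for all 3 genes, and the EpiSC arrays are split for Dppa4 (11.07 and 5.81) and Dppa5a (14.19 and 9.30).

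Among the double-reporter ESCs, Dppa3 was higher in 2i ESCs than in RFP+ serum ESCs, groups that differ in both gate and medium. Its log2 signal was 12.34 and 12.36 in 2i ESCs, 11.57 and 11.53 in RFP+ serum ESCs, and 12.13 on both arrays of RFP- serum ESCs. The 3 groups did not overlap, with RFP+ serum cells lowest. The fit gave a difference of 0.80 (standard error, SE, 0.11; adjusted p = 0.00035) for 2i over RFP+ serum ESCs, where 40.6% of all genes were called. That is 1.74-fold. The difference of RFP+ minus RFP- serum ESCs was -0.58 (SE 0.11, 95% interval -0.83 to -0.33), with an adjusted p of 0.23 that missed the threshold of 0.05. In this comparison 13 genes, 0.124% of all, were called and the unadjusted p of Dppa3 was 0.00044. Without background correction the same difference was -0.56 with an adjusted p of 0.0041 (0.181% called), and leaving out either EpiLC array gave an adjusted p of 0.037 (0.105% called). The 2i cells exceeded RFP- serum ESCs by 0.22 (SE 0.11, adjusted p = 0.15; 39.7% of genes called). In the same alternatives this difference was called, with adjusted p of 0.022 and 0.044. All adjusted p-values here are limma's with Benjamini-Hochberg adjustment over all 10481 genes.

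The single-reporter line had less Dppa3 than the double-reporter line in the same medium. Its arrays read 10.99 and 10.94, against 11.53 to 12.13 on the 4 double-reporter serum arrays, without overlap. The difference was -0.88 (SE 0.10, adjusted p = 2.6e-05) in a comparison that called 63.1% of genes. The labels give a sort gate for the double-reporter cells only, so line and sorting cannot be told apart in any comparison of these groups. Fibroblast markers differed between these lines too. The mean level of 10 such markers was 9.98 and 9.95 on the single-reporter arrays, 7.69 to 7.77 on the double-reporter serum arrays, and 11.90 and 12.05 in MEFs. Of the 10, 8 rose in the single-reporter line over the double-reporter line and none of the 10 fell. Their part in the difference of Dppa3 was not tested.

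Outside the ESCs, Dppa3 was near or below detection. EpiLCs read 6.39 and 6.00, against 12.34 and 12.36 in 2i ESCs and 11.57 and 11.53 in RFP+ serum ESCs. Dppa3 fell by 6.15 (SE 0.11, adjusted p = 4.3e-10) in EpiLCs relative to 2i ESCs, which is 71.2-fold, and by 5.36 (adjusted p = 1.6e-09) relative to RFP+ serum ESCs. Of all genes, 55.1% were called in the first comparison (27.6% lower) and 55% in the second (26.7% lower). Both comparisons share the EpiLC arrays. The probe was not detected on either EpiSC array (5.10 and 5.01) or either MEF array (4.70 and 4.78), so only bounds can be given. An "at least" fold divides the mean of the brighter group by a floor for the dimmer one: on each array the lowest signal of any detected probe, or the signal of the gene where that is greater. Dppa3 was at least 99.5-fold lower in EpiSCs than in 2i ESCs (adjusted p = 9.1e-11; 66.3% of genes called). It was at least 1.4-fold lower in EpiSCs than in EpiLCs (adjusted p = 2.3e-05; 56.4% called), so the EpiLC signal was above that of both EpiSC arrays. In MEFs it was at least 27.6-fold lower than in single-reporter ESCs (adjusted p = 9.4e-11; 78.3% called).

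Dppa4 was highest in the serum cells of the double-reporter line. It read 14.17 and 14.16 in single-reporter serum ESCs and 14 and 13.92 in 2i ESCs. In the double-reporter serum cells it read 14.55 on both RFP+ arrays and 14.52 and 14.60 on the RFP- arrays, which overlapped. All arrays of the single-reporter line and of 2i ESCs lay below all 4 double-reporter serum arrays. The size of the difference was -0.60 for 2i minus RFP- serum ESCs, -0.60 for 2i minus RFP+ serum ESCs and -0.40 for the single-reporter line minus the double-reporter serum cells. The fit over all 14 arrays shares 1 spread estimate per gene, which for Dppa4 included the split EpiSC arrays and gave an SE of 1.21, with adjusted p of 0.73, 0.74 and 0.76.

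With both EpiSC arrays left out, an alternative chosen after the data were seen, the SE of a pair of groups was 0.07. The 2i difference was then called against RFP- serum ESCs (adjusted p = 9.4e-05, 50.2% of genes called) and against RFP+ serum ESCs (9.9e-05, 50.7% called). The single-reporter difference was called as well (adjusted p = 0.00027, 70.5% called). RFP+ minus RFP- serum ESCs stayed at -0.01 (95% interval -0.16 to 0.15, adjusted p = 0.98; 0.439% called). In that fit, Dppa4 in single-reporter ESCs was also 0.20 above 2i ESCs (adjusted p = 0.026; 67.1% called) and 0.39 below RFP+ serum ESCs (0.00081). In that fit Dppa3 and Dppa4 therefore stood in opposite order between 2i and RFP+ serum ESCs. Dppa3 was higher in 2i ESCs, and Dppa4 was lower by the probe that stands for it. The fit over all 14 arrays did not call the Dppa4 part (adjusted p = 0.74).

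**Figure D2:**
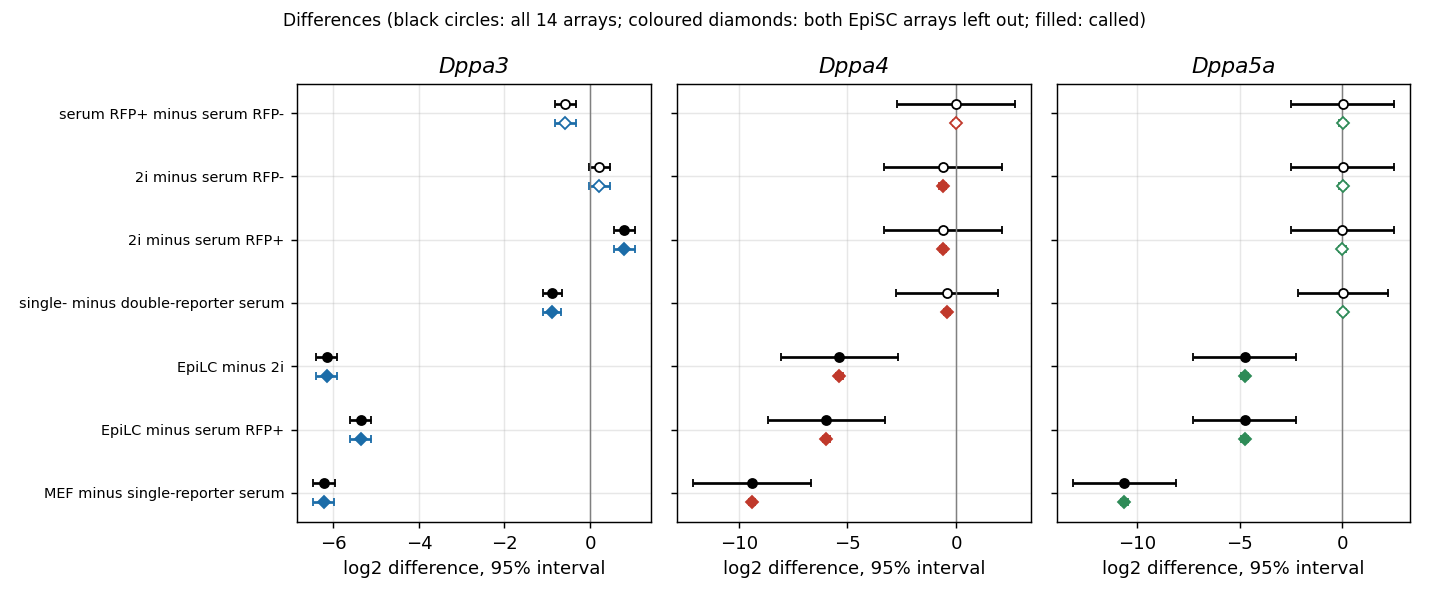
Log2 differences (horizontal axis) of the 3 genes in the 7 comparisons without EpiSCs, with 95% intervals from limma. Black circles are from all 14 arrays and coloured diamonds from the 12 arrays left without EpiSCs, filled where the adjusted p was under 0.05. The Dppa4 and Dppa5a intervals are narrower without the EpiSC arrays (SE 0.07) while the differences themselves keep their size.

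In EpiLCs Dppa4 read 8.56 and 8.63, far below 2i ESCs and still detected. It fell by 5.36 (SE 1.21, adjusted p = 0.0038), or 41.2-fold, relative to 2i ESCs and by 5.96 (adjusted p = 0.0021) relative to RFP+ serum ESCs. None of its probes was detected in MEFs (4.70 and 4.85 for the probe used), at least 253-fold below single-reporter ESCs (adjusted p = 4.7e-05).

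The 3 probes of Dppa4 were fitted with all 15326 detected probes. All 3 passed the detection filter. The brightest, ILMN_2593476, stands for the gene. The second, ILMN_3155408, gave differences near those of the first between 2i and RFP- serum ESCs (-0.59) and between EpiLCs and 2i ESCs (-4.93; EpiLCs were undetected with it). Between the single-reporter and double-reporter serum lines the first and second probes disagreed in size. Without the EpiSC arrays the first gave -0.40 (adjusted p = 0.00035) and the second -0.75 (1e-05), where 69.2% of probes were called. The third probe, ILMN_3076469, was dim. It was detected on the 6 double-reporter ESC arrays, at 6.38 to 7.04, and on none of the other 8, including the single-reporter arrays at 5.06 and 5.16. The third probe passed the filter through the double-reporter ESC arrays alone, so the size of its difference between these lines is not known. Between 2i and serum ESCs of the double-reporter line it did not share the fall of the first and second probes. Without the EpiSC arrays it gave -0.09 against RFP- serum ESCs (adjusted p = 0.7) and 0.04 against RFP+ serum ESCs (0.88). No probe sequences were used here, so it is not known which part of the transcript each probe reads.

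Dppa5a was at the top of the measuring range in ESCs. It read 16.07 and 16.05 in the single-reporter line, 16.06 and 16.04 in 2i ESCs, 16.06 and 16.03 in RFP+ serum ESCs, and 16.01 and 16.05 in RFP- serum ESCs. All 4 groups overlapped at least 1 other. No difference among them was called, and with the EpiSC arrays left out the difference of 2i minus RFP- serum ESCs was 0.02 (95% interval -0.14 to 0.18, adjusted p = 0.84). These values cannot separate the groups, because the scanner signal of the probe was 96.3% to 100% of the highest signal on each ESC array and ranked between 1 and 13 among all 25697 probes. The second probe, ILMN_3018711, was at 73.4% to 85.5% of the highest signal. With it the single-reporter line exceeded the double-reporter serum cells by 0.13 (adjusted p = 0.1 without the EpiSC arrays), and 2i minus RFP- serum ESCs was 0.03. The last probe, ILMN_2774896, was not detected on any of the 14 arrays and took no part in the tests.

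**Figure D3:**
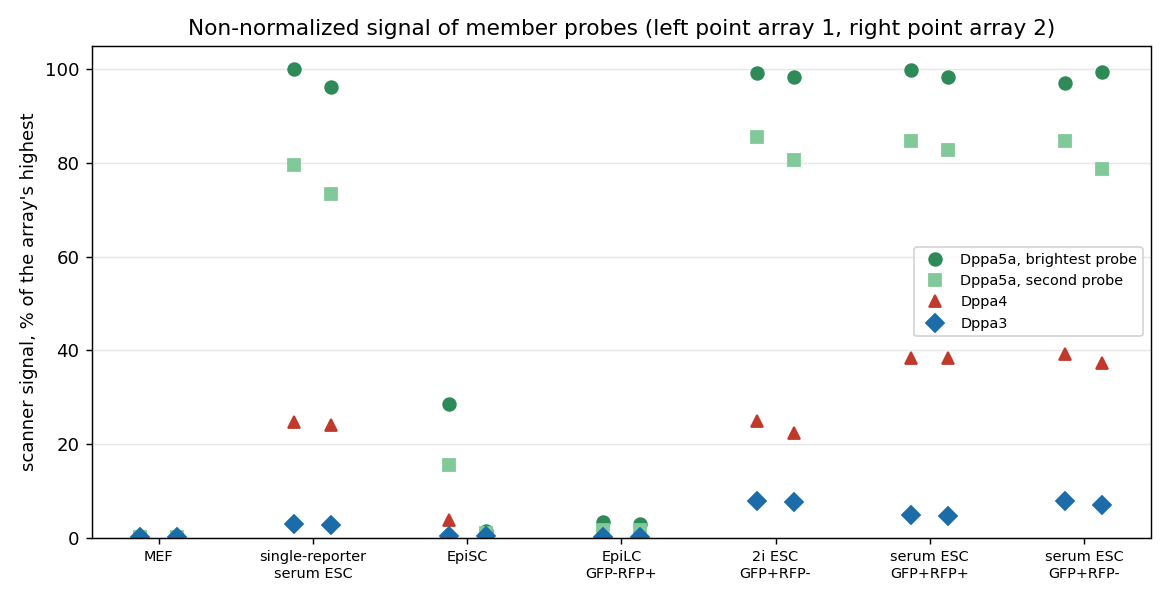
Non-normalized scanner signal of 4 probes as a percentage of the highest signal on the same array (vertical axis), by group; the left point of a pair is array 1 and the right point array 2. The brightest Dppa5a probe sits at 96.3% to 100% on every ESC array, at 28.5% and 1.41% on the EpiSC arrays and at 3.41% and 2.92% in EpiLCs.

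Below that ceiling, Dppa5a fell in EpiLCs. It read 11.35 and 11.24 in EpiLCs, well under every ESC array and above MEFs. The change was a fall by 4.75 (SE 1.12, adjusted p = 0.0051) relative to 2i ESCs, which is 26.9-fold, and also by 4.75 (adjusted p = 0.0052) relative to RFP+ serum ESCs. The second probe, farther from the ceiling, fell by 5.40 in both comparisons (adjusted p = 0.0023 and 0.0024; 52.8% and 52.4% of detected probes were called). A signal at the ceiling can understate a fold. In MEFs the gene was undetected (5.54 and 5.36), at least 946-fold below single-reporter ESCs (adjusted p = 1.1e-05). All 3 genes thus fell in EpiLCs relative to 2i and to RFP+ serum ESCs, and in MEFs relative to single-reporter ESCs, where 38.7% of all genes fell.

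The EpiSC arrays parted the 3 genes. Dppa4 read 11.07 on EpiSC array 1 and 5.81 on EpiSC array 2, where it barely passed the detection threshold. The EpiLC arrays lay between them. Dppa5a read 14.19 on array 1 and 9.30 on array 2, again on either side of the EpiLCs. Set against the mean of 2i ESCs on the linear scale, Dppa4 was at 13.5% on array 1 and 0.354% on array 2, with EpiLCs at 2.43%. Dppa5a was at most at 27.6% on array 1, 0.932% on array 2 and 3.71% in EpiLCs, since its 2i signal was at 98.4% and 99.3% of the array maximum and may be too low. Array 1 minus array 2 was 5.26 for Dppa4 and 4.89 for Dppa5a, the highest and second highest differences of 10481 genes. Dppa3, undetected on both, differed by 0.09.

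The EpiSC group means therefore describe neither array. The mean difference of EpiSCs minus EpiLCs was -0.15 for Dppa4 (SE 1.21, adjusted p = 0.92) and 0.45 for Dppa5a (SE 1.12, adjusted p = 0.75). With array 2 left out, Dppa4 was 2.48 (adjusted p = 6e-08) and Dppa5a 2.89 (2.8e-08) above EpiLCs, with 60.1% of genes called. With array 1 left out they were -2.78 (3e-08) and -2.0 (2.3e-07) relative to EpiLCs, with 60.3% of genes called. In each of these fits the lone EpiSC array is assumed to vary like the other groups. Relative to 2i ESCs, both arrays were lower: Dppa4 fell by 5.52 on average (adjusted p = 0.0026), by 2.89 with array 1 alone and by 8.14 with array 2 alone. Dppa5a fell by 4.30 on average (adjusted p = 0.007), by 1.86 with array 1 alone and by 6.75 with array 2 alone. Fitted with only the EpiSC and 2i arrays, the average falls were not called (adjusted p = 0.07 for Dppa4 and 0.11 for Dppa5a). Relative to RFP- serum ESCs the average falls were 6.12 for Dppa4 (adjusted p = 0.0014) and 4.28 for Dppa5a (0.0073), and Dppa3 was at least 85.6-fold lower; 65.2% of genes were called there. Fitted with only these 2 groups, the falls of Dppa4 (adjusted p = 0.057) and Dppa5a (0.11) were not called either. The second Dppa4 probe was detected on EpiSC array 1 (7.48) and not on array 2 (5.50), and the second Dppa5a probe read 13.26 on array 1 and 8.42 on array 2.

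Several genes of the naive state parted with Dppa4 and Dppa5a. In all, 188 genes were over 1 log2 higher on array 1 and 402 were over 1 log2 lower. After the 2 members the order went on with Ooep, a KH-family gene of the egg (4.35), Dnmt3l, a cofactor of de novo DNA methylation (3.89), Tex19.1 (3.75) and Esrrb, a nuclear receptor of the naive state (3.17); Tex19.1 was named after its value was seen. Of 10 naive genes, 4 were over 1 log2 higher on array 1 and none was over 1 log2 lower. Beside Esrrb, Zfp42 differed by 2.16. The other two, Tcl1 and Nr5a2, each read 6.71 on array 1 and were undetected on array 2 (4.81 and 4.93), so the size of their difference is not known. Other naive genes did not part this way. Klf2 differed by 0.15, Prdm14 by 0.07 and was undetected on both, Tbx3 by -0.63 and was undetected on both, and Klf4 by -0.92. Among the core genes Nanog differed by 0.04, Pou5f1 by 0.14 and Sox2 by -0.40. Genes of the post-implantation epiblast were also higher on array 1, so the split was not one of naive genes alone. The mean of 9 such genes was 11.09 on array 1 and 10.57 on array 2. Their median difference was 0.51, against 0.57 for the 10 naive genes. Of the 9, 1 was over 1 log2 higher on array 1 (Fgf15, 1.07).

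Markers of other cell types differed between the EpiSC arrays as well. The mean of 10 fibroblast markers was 6.23 on array 1 with 5 detected and 7.71 on array 2 with 7 detected. Col1a1, a collagen, differed by -3.53 and Dcn, a matrix proteoglycan, by -3.54. The mean of 5 extraembryonic endoderm genes was 8.65 on array 1 and 7.58 on array 2, with all 5 detected on both. These genes did not move as 1: 3 were over 1 log2 higher on array 1 (Amn most, by 2.92), Gata6 differed by 0.45 and Dab2 by -0.77. Of 5 germline genes controlled by DNA methylation, 3 were over 1 log2 higher on array 1. These were Mov10l1 (7.22), Taf7l (6.69) and Dazl (6.57), and all 3 were undetected on array 2 (5.03, 4.95 and 5.18), so the size of their difference is not known. The part of these genes in the split of Dppa4 and Dppa5a was not tested.

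**Figure D4:**
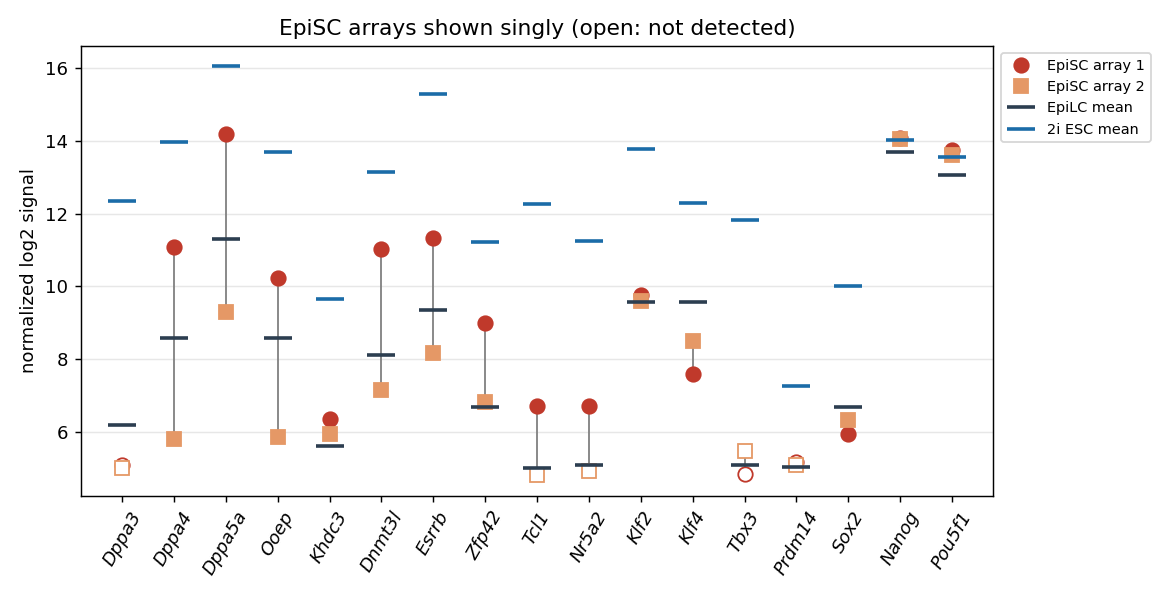
Normalized log2 signal (vertical axis) of 17 genes on EpiSC array 1 (circles) and array 2 (squares), joined by a line, with the EpiLC mean (dark bar) and 2i ESC mean (blue bar). Open symbols were not detected. Dppa4, Dppa5a, Ooep, Dnmt3l and Esrrb lie above the EpiLC mean on array 1 and below it on array 2, whereas Dppa3 is undetected on both arrays and Nanog and Pou5f1 barely differ.

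Ooep is the next gene to Dppa5a on mouse chromosome 9 in RefSeq's GRCm38.p6 annotation, and it encodes another protein of the KH family. Its profile over the 14 arrays was the one most like Dppa4 of 8373 genes compared (Pearson r = 0.998). Ooep read 10.22 on EpiSC array 1 and 5.87 on array 2, 8.54 and 8.63 in EpiLCs, and 13.65 and 13.74 in 2i ESCs. In serum it read 14 and 14.05 in RFP+ ESCs and 14.03 and 14.02 in RFP- ESCs, so both 2i arrays lay below these 4, as for Dppa4. The 2i differences of Ooep were not called in the fit over 14 arrays (-0.33, adjusted p = 0.83 against RFP- and -0.32, 0.84 against RFP+ serum ESCs). With both EpiSC arrays left out, Ooep was called lower in 2i against RFP- serum ESCs (50.2% of all genes called) and against RFP+ serum ESCs (50.7%). Its single-reporter arrays (14.01 and 14.07) overlapped the double-reporter serum arrays, which those of Dppa4 did not. Ooep fell by 5.11 (SE 1.00, adjusted p = 0.0017) in EpiLCs relative to 2i ESCs. The RefSeq promoter table used here has no entry for the 3 genes. The 250 bases before the start of Ooep, at chr9:78378589-78378838 on the minus strand of GRCm38.p6, are shown because the gene adjoins Dppa5a and tracks Dppa4; capitals mark CpG dinucleotides, the sites of DNA methylation.

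Ooep promoter: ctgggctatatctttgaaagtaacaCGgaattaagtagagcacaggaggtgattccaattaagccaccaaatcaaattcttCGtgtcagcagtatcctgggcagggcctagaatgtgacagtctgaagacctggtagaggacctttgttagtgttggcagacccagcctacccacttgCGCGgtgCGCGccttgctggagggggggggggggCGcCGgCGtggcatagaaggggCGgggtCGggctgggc

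The stretch has 11 CpGs, most of them near the start, and a GC content of 57.2%. Of 32851 promoters of this length, 35.6% have as many CpGs or more, and the median is 6. On either strand it holds no match to AAGGTCA (a nuclear receptor site, in 4.08% of promoters), TGCAAAT (part of the octamer, 3.56%), TTCNNNGAA (a STAT site, 7.02%) or CACGTG (an E-box, 6.02%). These counts describe letters in this window only.

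Of 5 KH-family relatives of Dppa5a, 2 were tested, and both fell in EpiLCs relative to 2i ESCs (median -4.58, against -0.008 over all genes, of which 27.6% fell). The other was Khdc3, which like Ooep belongs to a maternal complex of the egg. Among the double-reporter ESCs, Khdc3 was higher in 2i than in serum cells. It read 9.69 and 9.60 in 2i ESCs, 8.14 and 7.88 in RFP+ serum ESCs and 8.67 and 8.70 in RFP- serum ESCs. It rose by 1.63 (SE 0.19, adjusted p = 0.00011) in 2i over RFP+ serum ESCs and by 0.96 (adjusted p = 0.0028) over RFP- serum ESCs. The single-reporter arrays (8.03 and 7.95) overlapped those of RFP+ serum ESCs, and the single-reporter line minus the double-reporter serum cells was -0.36 and not called (adjusted p = 0.081).

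Genes beside Dppa3 on chromosome 6 moved in both directions in EpiLCs. In the annotation Dppa3 lies between Gdf3, a TGF-beta family ligand, and Nanog, a core pluripotency factor. Of 7 genes listed for this cluster, 5 were tested. In EpiLCs relative to 2i ESCs, 3 rose and 2 fell, with a median of 0.31 against -0.008 over all genes, of which 55.1% were called and 27.6% fell. Gdf3 fell by 1.80 (SE 0.23, adjusted p = 9.8e-05) and Nanog by 0.33 (SE 0.09, adjusted p = 0.012), against 6.15 for Dppa3. Apobec1, an RNA-editing enzyme, rose by 1.52 (adjusted p = 5.9e-07), Foxj2, a forkhead factor, by 0.46 (0.0062), and Slc2a3, a glucose transporter, by 0.31 (0.014). In EpiSCs relative to 2i ESCs, Gdf3 fell by 4.90 (adjusted p = 6.7e-08), while Nanog differed by 0.04 (adjusted p = 0.75). The group means of Gdf3 were 5.24 in MEFs, where it was undetected, 8.30 in EpiSCs, 11.40 in EpiLCs and 12.64 to 13.19 in ESCs. It was at least 88.1-fold lower in MEFs than in single-reporter ESCs (adjusted p = 2.3e-09), so like Dppa3 it was high in ESCs, lower in EpiLCs and undetected in MEFs. The genes listed beside Dppa4, among them its partner Dppa2, were not analysed here or were not detected: none of 4 was tested. Dppa1 had a probe but did not pass the detection filter.

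Dppa3 is known to act on DNA methylation as a process, and genes of that process were followed as a list. Of 9, 5 were tested. In EpiLCs relative to 2i ESCs, 2 rose and 3 fell, with a median of -0.36, where 55.1% of all genes were called and 27.6% fell. Dnmt3l fell by 5.03 (SE 0.90, adjusted p = 0.00093) and Dnmt1, the maintenance methylase, by 0.67 (adjusted p = 0.00016). Uhrf1, the cofactor that Dppa3 binds, fell by 0.36 (adjusted p = 0.0056), which is far less than Dppa3. Dnmt3b, a de novo methylase, rose by 1.37 (adjusted p = 9.7e-08) and Tdg, a base excision enzyme, by 0.47 (0.0015). In 2i relative to RFP- serum ESCs Dnmt3b was the 1 tested gene of 5 to change, with a fall by 1.38 (adjusted p = 4.1e-07; 39.7% of all genes were called). Dnmt3l read 13.16 and 13.12 in 2i ESCs and 15.46 on both RFP- serum arrays, a difference of -2.32 with an adjusted p of 0.066 in the fit that held the split EpiSC arrays; without them 1 of the 5 rose and 2 fell, and 50.2% of all genes were called.

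Of 13 germline genes controlled by DNA methylation, 5 were tested. In EpiLCs relative to 2i ESCs, where 27.6% of all genes fell, 3 were called lower and 0 higher. Ddx4, a germ cell helicase, fell by 0.83 (adjusted p = 0.00099). Dazl, an RNA-binding protein of germ cells, was undetected in EpiLCs and at least 2.12-fold lower (adjusted p = 0.003). Asz1, a piRNA pathway gene, was undetected in EpiLCs and detected on 1 of the 2i arrays. It was at least 1.13-fold lower (adjusted p = 0.028). Of 18 genes of the 2-cell-like state, which Dppa4 is known to help activate, 2 were tested. Zscan4c was detected in EpiSCs only, at 7.86 on array 1 and 6.6 on array 2, at least 2.59-fold above 2i ESCs. It passed the detection filter through the EpiSC arrays alone, so no p-value is given for this difference. Tdpoz1 differed by -0.10 between EpiSCs and 2i ESCs (adjusted p = 0.6).

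Likeness of profile is given as Pearson's r over the 14 arrays, among 8373 genes whose group means span at least 1 log2. It is a description: arrays of a group are alike, and the contrast of ESCs with MEFs weighs on every value. Dppa5a was at the ceiling on every ESC array, so its profile there may be flattened, which bears on each r with Dppa5a. Between members r was 0.978 for Dppa4 and Dppa5a, 0.927 for Dppa3 and Dppa4, and 0.866 for Dppa3 and Dppa5a. Dppa3 was most like Sox2, a core pluripotency factor (0.994), followed by Kat2b, a histone acetyltransferase (0.989), Rnf125, a ubiquitin ligase (0.987), Tex14, a protein of germ cell bridges (0.987), and Pecam1, an adhesion molecule (0.986). Dppa4 was most like Ooep, then Bid, a BH3 protein of cell death (0.989), Esrrb (0.988), Tdrd12, a piRNA pathway gene (0.986), and Urah (0.98). Dppa5a was most like Zfp819, a zinc finger gene (0.991), then Esrrb (0.985), Gbx2, a homeobox factor (0.979), Dppa4 (0.978) and Alpl, alkaline phosphatase (0.978).

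The 2 EpiSC arrays were among the 14 over which likeness was ranked, so the levels of these genes there were partly set by that choice and are given as a description. Sox2, nearest to Dppa3, read 5.93 and 6.32 on EpiSC arrays 1 and 2, 6.76 and 6.63 in EpiLCs, and 10.10 and 9.89 in 2i ESCs. Pecam1 was undetected in EpiSCs, EpiLCs and MEFs, and Tex14 read 5.82 and 5.05 on the EpiSC arrays and was detected on 1 of them. Bid, near to Dppa4, read 11.01 and 10.50 there. Esrrb, near to both Dppa4 and Dppa5a, read 11.32 and 8.16 on the EpiSC arrays, 9.46 and 9.25 in EpiLCs, and 15.32 and 15.25 in 2i ESCs. Zfp819 read 9.07 and 7.74 on the EpiSC arrays, on either side of 8.63 and 8.49 in EpiLCs, and Gbx2 read 9.44 and 7.39 on the EpiSC arrays, against 9.53 and 9.47 in EpiLCs.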

How the data were processed

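The authors deposited non-normalized signal intensity per probe and array and a detection p-value for each, per the file headers; the submitters' processing notes name GenomeStudio 2011.1, and the sources used here do not give its settings. A second deposited table holds values on a log2 scale; 100% of them lay within 0.01 of quantile normalized log2 scanner signals without background correction, with no centring of genes (median of each column 7.529). Scale and direction are thus known, and the table served as an alternative.

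Scanner signals were corrected for background and normalized in R 4.3.3 with the neqc function of limma 3.58.1 (normexp, negative controls estimated through detection p-values, offset 16), which ends in quantile normalized log2 values. The platform annotation gave 23978 probes 1 symbol, 0 several and 1719 none; of these, 23971 matched a current gene table and 7 kept the annotation symbol. Each gene was represented by its brightest probe on average among those detected (p under 0.05) on the 2 arrays of some group; 10481 genes remained. A single limma model with 7 group means was fitted to the 14 arrays, with 7 residual and 2.5 prior degrees of freedom. Calls required an adjusted p (Benjamini-Hochberg) under 0.05 in 1 of 10 comparisons or, for the order of groups, of 21 pairwise contrasts. The number of arrays limits the precision: the median half-width of a gene's 95% interval was 0.289 log2.

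The members, gene lists and tests were chosen with earlier results of these data known. The genes named are the 3 members, the 5 genes most like each, and genes of the fixed lists; exceptions are stated. RefSeq (GRCm38.p6) gave neighbours and the promoter. The files of this series name no build, so the RefSeq window of the Ooep promoter is the only position printed. Pseudogenes Dppa5b, Dppa5c and Dppa3-ps exist, and cross-hybridisation was not checked. Comparisons that share groups are not independent.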

Additional observations from a re-analysis of the deposited data

How the results depend on the processing

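The 30 results (3 genes in 10 comparisons) were recomputed under 9 other processing choices, with each array left out, and under 2 alternatives added after seeing the data. All 30 kept direction and call with all detected probes, without a detection filter, with an intensity trend and robust fit, and with the replicate number as a block; for example, with the replicate block Dppa3 in RFP+ minus RFP- serum ESCs was -0.58 (adjusted p = 0.27). Replicate numbers did not pair the arrays: over 21 group pairs their deviations correlated at -0.03 to 0.09. Without background correction, and in the authors' deposited table, Dppa3 became called in RFP+ minus RFP- serum (-0.56) and 2i minus RFP- serum (0.21), and Dppa4 in EpiSCs minus EpiLCs reversed (0.32). Under median scaling the median of all genes was -0.111 in EpiLC minus 2i (-0.008 as quantile normalized), -0.167 in EpiSC minus 2i (-0.013) and -0.111 in MEF minus single-reporter (0.001). This scaling gave 0.35 for Dppa3 in 2i minus RFP- serum (called) and 0.03 for Dppa4 in RFP+ minus RFP- serum (reversed). With only the groups compared, calls were gained for Dppa3 (0.22) and Dppa4 (-0.60) in 2i minus RFP- serum, Dppa4 in 2i minus RFP+ serum (-0.60) and in the single-reporter line (-0.40). Calls were lost there in EpiSC minus 2i for Dppa4 (-5.52, adjusted p = 0.07) and Dppa5a (-4.30, 0.11), and in EpiSC minus RFP- serum for Dppa4 (-6.12, 0.057) and Dppa5a (-4.28, 0.11); fewer arrays entered these fits. The mean of detected probes reversed Dppa4 in EpiSCs minus EpiLCs (0.41), as did the second brightest probe (1.26, adjusted p = 0.04), which gave 0.02 for Dppa4 in RFP+ minus RFP- serum. That probe was undetected on both EpiLC arrays and on EpiSC array 2, so its 1.26 rests on EpiSC array 1 and its size is not known. With both EpiSC arrays left out, Dppa4 was called in 2i minus RFP- serum (-0.60), 2i minus RFP+ serum (-0.60) and the single-reporter line (-0.40).

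Leaving out 1 array at a time lost no call. Ranges for results whose call or sign changed were, for Dppa3, -0.60 to -0.56 (RFP+ minus RFP- serum) and 0.20 to 0.23 (2i minus RFP- serum). For Dppa4 they were -0.05 to 0.03 (RFP+ minus RFP- serum), -0.65 to -0.56 (2i minus RFP- serum), -0.63 to -0.56 (2i minus RFP+ serum), -0.42 to -0.37 (single-reporter) and -2.78 to 2.48 (EpiSC minus EpiLC). For Dppa5a the range was -2.0 to 2.89 (EpiSC minus EpiLC). Beyond the changes of arrays and probes, the cause was not tested. Signal limits both ends of the scale: Dppa5a in ESCs was at the scanner's ceiling, and undetected genes have only bounds.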
